A study of Mus musculus with 16 samples.

Results

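The IL-12 and IL-23 cytokine family was followed here as 8 named genes: the subunit genes Il23a, Il12b, Il12a, Il27 and Ebi3 and the receptor chain genes Il12rb2, Il23r and Il27ra. They were chosen by name. Each was read from a probe set that the array's gene table gives to that gene alone, and each of the 8 had 1 such probe set among the 18820 genes measured.

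Cytokines of this family are dimers that share chains. The p40 chain encoded by Il12b pairs with p35 (Il12a) to form IL-12 and with p19 (Il23a) to form IL-23, and the Ebi3 chain pairs with p28 (Il27) to form IL-27. Macrophages and dendritic cells secrete them after contact with microbes. IL-12 directs T cells and NK cells towards interferon gamma, IL-23 sustains T cells that make IL-17, and IL-27 both promotes early T-cell activation and restrains later inflammation.

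RNA came from RAW264.7, a macrophage-like line derived from a tumour of a mouse infected with Abelson leukaemia virus, so every array reports 1 transformed line and no primary cell. The groups were LPS+DHA5HT (lipopolysaccharide at 1 µg/ml with docosahexaenoyl serotonin at 1 µM), LPS (1 µg/ml, with vehicle), DHA5HT (1 µM) and control (vehicle), each with 4 arrays and each sampled at 24 h. Lipopolysaccharide, a molecule of the outer membrane of Gram-negative bacteria, is sensed through TLR4, and docosahexaenoyl serotonin joins an n-3 fatty acid to serotonin. The control label names ethanol at 0.1% by volume, and the other treatment labels name no solvent. The labels give no culture or passage for the replicates, so a p-value here covers the spread between arrays, which may be technical.

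Values are log2 intensities, on which a difference of 1 is a doubling, and values after ± are the SD of 4 arrays. Levels are compared between groups for 1 gene at a time, because different probe sets need not bind equally well. Markers of T, B and epithelial cells (22 genes) had a median of 3.85, which serves as the level of genes the line should lack, and 33.1% of all genes lay below it. The median gene lay at 5.24. Of 12 macrophage markers 11 lay above 3.85 in LPS+DHA5HT, LPS and control arrays and 12 in DHA5HT arrays. All 5 NK-cell markers lay below it in every group, and 3 of 7 dendritic-cell markers above it. The lists that set this level lie on both sides of it by construction. Over the 9 T-cell markers the median per array was 4.05 to 4.15 in LPS+DHA5HT, 3.88 to 4.06 in LPS, 3.62 to 4.16 in DHA5HT and 3.88 to 4.04 in control. Its lowest member was Cd3g, a chain of the T-cell receptor complex, at 3.16 to 3.38 in the 4 groups. Its highest were Cd5, at 9.15 to 9.31, and Cd28, which averaged 7.55 ± 0.56 in LPS+DHA5HT, 6.97 ± 0.21 in LPS, 9.19 ± 0.37 in DHA5HT and 8.71 ± 0.17 in control (LPS against control −1.74, limma adjusted p = 6.99e-06). Its part in the family's differences was not tested. LPS+DHA5HT array 1 carries a title that names both agents and a treatment label that names DHA5HT only, and it was grouped by its title. On the first principal component of all genes that array stood at 22.7, against −33.6 to −31.0 for the 4 DHA5HT arrays. LPS+DHA5HT array 4 stood apart on the second principal component (−22.4, the others at −9.36 or above). It had the lowest Il12b, Il27, Ebi3, Il12rb2, Il23r and Il27ra values of its group.

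The question of the study's design text is what DHA5HT does in LPS-treated cells. With both agents 3 of the 8 family genes were lower than with LPS alone, Il12b, Il23a and Il27, and 0 were higher (limma, adjusted p under 0.05). Across all genes 1.79% were called in this comparison, 0.818% higher and 0.972% lower. This fit did not pair the arrays, although same-numbered arrays of these groups varied together. With the array number as a block 4 of the 8 were lower, Ebi3 among them. In that fit 647 of the 18820 genes were called, 324 of them lower. The groups did not overlap for 4 of the 8, namely Il12b, Il23a, Il27 and Ebi3, against 7.89% of all genes. The median change of the 8 genes was −0.29, beside 0.00199 over all genes. In bulk RNA a lower level can come from fewer expressing cells or from less RNA per cell, and the arrays cannot tell these apart. The plot of the family's values by array shows each of the 8 genes in the 4 groups.

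**Figure D1:**
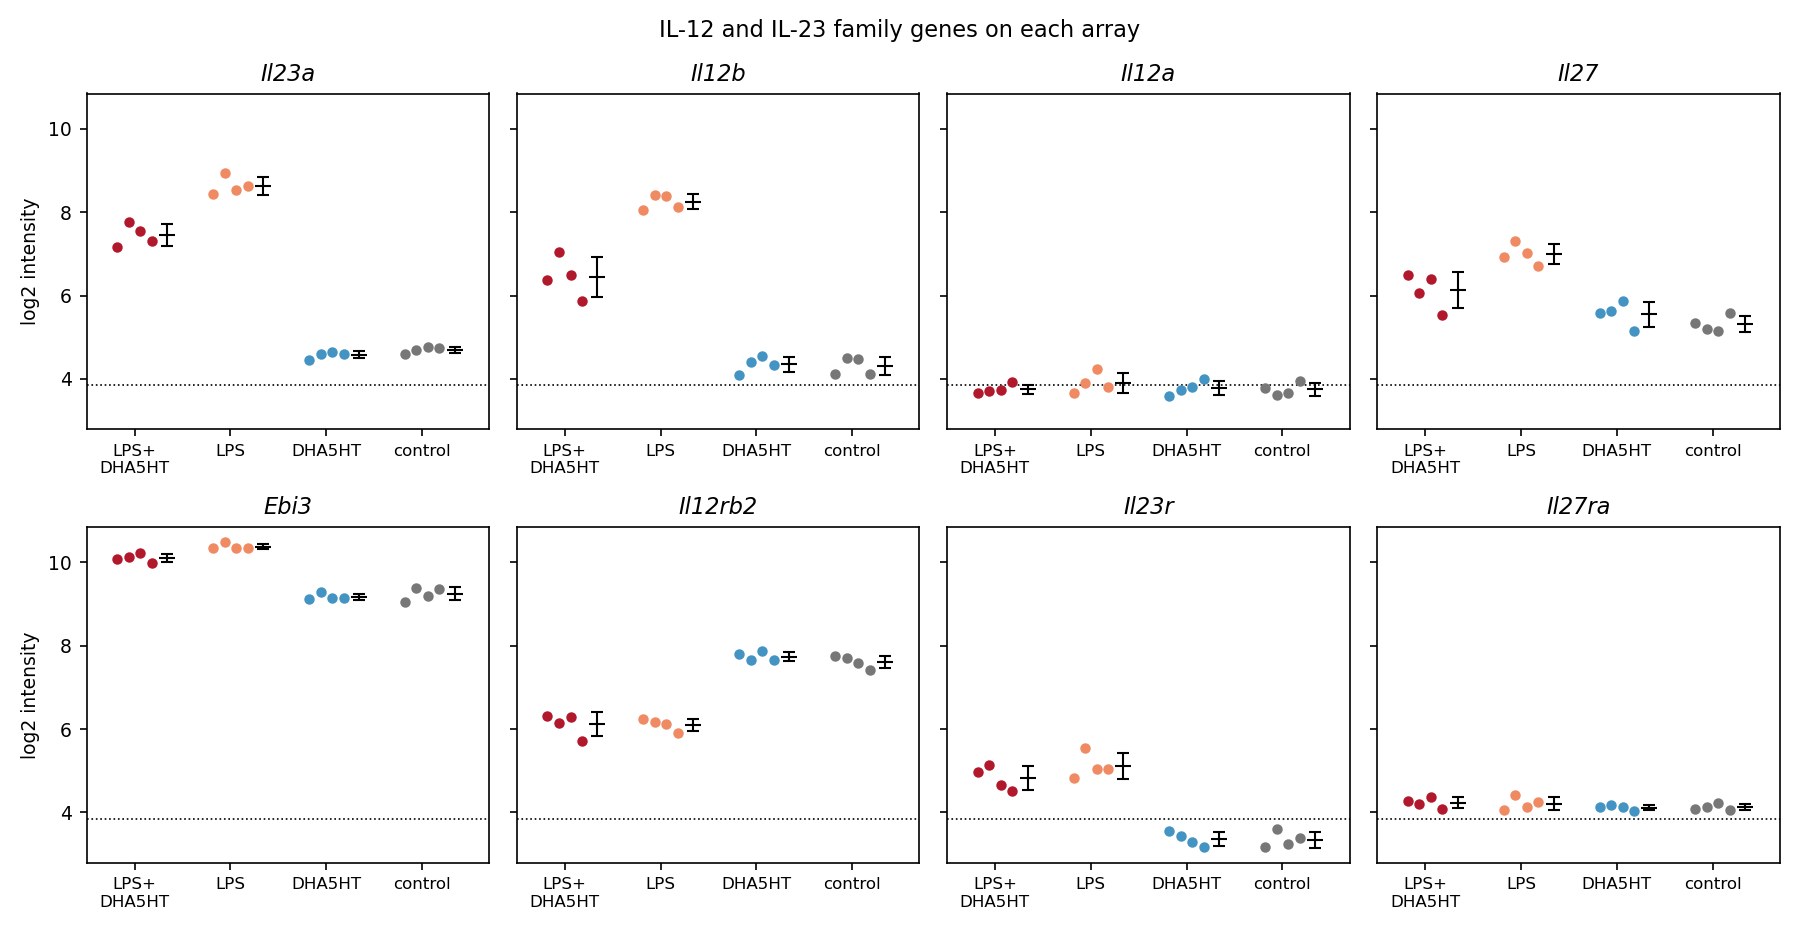
Log2 intensity (vertical axis) of the 8 family genes on every array, by group. Points are arrays 1 to 4 from left to right, the bars are mean ± SD (n = 4) and the dotted line is the background level of 3.85. On average Il23a, Il12b, Il27, Ebi3 and Il23r are higher with LPS than without it, Il12rb2 is lower, and Il12a and Il27ra lie close to the dotted line in every group.

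Il12b (probe set 10375331) encodes p40, the chain that IL-12 and IL-23 share. Its level was 6.37, 7.04, 6.50 and 5.87 on LPS+DHA5HT arrays 1 to 4, against 8.06, 8.42, 8.39 and 8.13 on LPS arrays. The DHA5HT arrays read 4.09, 4.41, 4.54 and 4.34 and the control arrays 4.11, 4.50, 4.47 and 4.12. Every LPS+DHA5HT array lay below every LPS array, with a gap of 1.02, and above every array without LPS, while the groups without LPS overlapped. LPS+DHA5HT averaged 6.45 ± 0.48 and LPS 8.25 ± 0.18, a difference of −1.80 (SE 0.18, 95% interval −2.18 to −1.42), or 3.49-fold lower (limma adjusted p = 4.62e-05). By size that was the 5th lowest difference among the 18820 genes. Without LPS+DHA5HT arrays 1 and 4 it was −1.48 (adjusted p = 0.00108).

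Il23a (probe set 10373358) encodes p19, the chain particular to IL-23. It stood at 7.17, 7.78, 7.55 and 7.31 on the LPS+DHA5HT arrays, against 8.44, 8.93, 8.54 and 8.62 on the LPS arrays. The DHA5HT arrays gave 4.45, 4.61, 4.65 and 4.61 and the control arrays 4.60, 4.68, 4.76 and 4.74. As for Il12b, LPS lay highest and LPS+DHA5HT next, with no overlap between them (gap 0.66), and the lower groups, DHA5HT and control, overlapped. The mean was 7.45 ± 0.27 with both agents and 8.63 ± 0.21 with LPS alone, a difference of −1.18 (SE 0.12, 95% interval −1.42 to −0.94), 2.26-fold lower (limma adjusted p = 3.96e-05). It ranked 21st from the lowest of all genes by difference. Without LPS+DHA5HT arrays 1 and 4 it was −0.97 (adjusted p = 0.00126).

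Il12a (probe set 10492540) encodes p35, which completes IL-12. Its arrays read 3.66, 3.70, 3.74 and 3.91 with both agents and 3.67, 3.90, 4.23 and 3.80 with LPS. Means were 3.75 ± 0.11 in LPS+DHA5HT, 3.90 ± 0.24 in LPS, 3.78 ± 0.17 in DHA5HT and 3.75 ± 0.15 in control. All 4 groups overlapped and only the LPS mean lay above the background level of 3.85. The difference between LPS+DHA5HT and LPS was −0.15 (95% interval −0.38 to 0.09, limma adjusted p = 0.624), a difference between values at or near background.

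Il27 (probe set 10567987) encodes p28 of IL-27. It read 6.50, 6.07, 6.40 and 5.53 on LPS+DHA5HT arrays, against 6.92, 7.31, 7.02 and 6.72 on LPS arrays. The DHA5HT arrays read 5.57, 5.63, 5.87 and 5.14 and the control arrays 5.33, 5.19, 5.16 and 5.57. LPS+DHA5HT lay below LPS on every array, by a gap of 0.22, but its array 4 fell within the range of the DHA5HT arrays. The means were 6.12 ± 0.43 and 6.99 ± 0.24 for LPS+DHA5HT and LPS, 1.83-fold lower with both agents (difference −0.87, SE 0.19, limma adjusted p = 0.0267). This call did not hold when array 2 of either group, LPS array 3 or LPS+DHA5HT array 4 was left out (adjusted p from 0.0578 up to 0.0910), without LPS+DHA5HT arrays 1 and 4 together (0.131), with all probe sets in the adjustment (0.0829) and when only the compared arrays were fitted (0.0940).

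Ebi3 (probe set 10445977) encodes the partner chain of p28. Its level was 10.08, 10.13, 10.22 and 9.99 on LPS+DHA5HT arrays, against 10.34, 10.48, 10.34 and 10.36 on LPS arrays. The values did not overlap, with a gap of 0.12. The difference was −0.28 (SE 0.07, 95% interval −0.43 to −0.12) and missed the threshold (limma adjusted p = 0.0733). Same-numbered arrays of these groups varied together, and with the array number as a block Ebi3 was called lower (adjusted p = 0.0358).

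The receptor chain genes Il12rb2, Il23r and Il27ra (probe sets 10545135, 10545154 and 10580061) were not called in this comparison. Il12rb2, the signalling chain of the IL-12 receptor, read 6.32, 6.15, 6.29 and 5.72 with both agents and 6.24, 6.16, 6.11 and 5.91 with LPS, and the difference was 0.02 (95% interval −0.23 to 0.26, adjusted p = 0.975). Il23r, the IL-23-specific receptor chain, read 4.98, 5.13, 4.66 and 4.51 with both agents and 4.83, 5.55, 5.04 and 5.03 with LPS, a difference of −0.29 (95% interval −0.62 to 0.03, adjusted p = 0.423). For Il27ra, the IL-27-specific chain, LPS+DHA5HT averaged 4.23 ± 0.13 and LPS 4.21 ± 0.15, a difference of 0.02 (95% interval −0.14 to 0.19, adjusted p = 0.943). All 3 overlapped between the groups, and the intervals bound each difference without showing that it is 0.

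LPS against control asks what the stimulus did to the family. With LPS 5 of the 8 genes were higher (Il12b, Il23a, Il23r, Il27 and Ebi3) and 1 was lower (Il12rb2). Across all genes 28.4% were called here, 12.6% higher (2376 genes) and 15.8% lower (2970 genes), or 3043 higher and 2468 lower when each array was centred on its median. The median change of the 8 was 1.41, against 0.00406 over all genes. The means of Il12b were 8.25 ± 0.18 with LPS and 4.30 ± 0.21 in control, 15.5-fold higher (difference 3.95, SE 0.18, limma adjusted p = 2.05e-11). For Il23a the difference was 3.94 (SE 0.12, 15.3-fold, adjusted p = 8.70e-14). These placed 30th and 32nd from the highest of all genes. Il27 was 3.21-fold higher, with 6.99 ± 0.24 in LPS and 5.31 ± 0.19 in control (adjusted p = 1.73e-06). Ebi3 averaged 10.38 ± 0.07 with LPS and 9.24 ± 0.15 in control, 2.20-fold higher (adjusted p = 2.29e-09). Each of these 4 genes had all LPS arrays above all control arrays, as Il23r had. Il12rb2 had all LPS arrays below all control arrays. Counting both directions, 29.8% of all genes had groups that did not overlap.

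The IL-12 and IL-23 receptor chains moved in opposite directions under LPS. Il12rb2 read 6.24, 6.16, 6.11 and 5.91 on LPS arrays, against 7.75, 7.70, 7.59 and 7.42 on control arrays. It was 2.85-fold lower with LPS (difference −1.51, SE 0.12, adjusted p = 1.74e-08) and 51st from the lowest of all genes. The Il23r control arrays read 3.17, 3.60, 3.24 and 3.38, all below 3.85, and the LPS arrays 4.83 and above. Il23r was therefore at least 2.41-fold higher with LPS, taking 3.85 in place of the control mean (adjusted p = 7.71e-08). Il27ra averaged 4.21 ± 0.15 with LPS and 4.12 ± 0.07 in control, with a difference of 0.09 (95% interval −0.07 to 0.26, adjusted p = 0.466), and Il12a was not called either (0.15, adjusted p = 0.391). In the RefSeq gene table (GRCm38.p6) Il12rb2 and Il23r are next to each other on chromosome 6 among protein-coding genes. Of the other genes nearby, Serbp1 differed by −0.11 (adjusted p = 0.142) and Gadd45a, a stress-response gene on the far side of Serbp1, by 2.81 (adjusted p = 4.01e-09).

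The LPS response was also measured in cells that had DHA5HT in both groups. LPS+DHA5HT against DHA5HT called the same counts of members, 5 higher and 1 lower, where 28.1% of all genes were called, 12.4% higher (2333 genes) and 15.7% lower (2952 genes), or 2800 higher and 2478 lower after centring. Groups did not overlap for 5 of the 8, against 28.5% of all genes. Il23a was 7.33-fold higher (difference 2.87, adjusted p = 4.53e-12) and Il12b 4.29-fold higher (2.10, adjusted p = 8.45e-08). Ebi3 was 1.90-fold higher (0.93, adjusted p = 3.67e-08) and Il23r at least 1.96-fold higher, again against a group below background. Il12rb2, which read 7.79, 7.66, 7.87 and 7.65 on DHA5HT arrays, was 3.07-fold lower, with 6.12 ± 0.28 in LPS+DHA5HT and 7.74 ± 0.11 in DHA5HT (adjusted p = 8.78e-09). Il27 was 1.49-fold higher with overlapping groups (0.57, SE 0.19, adjusted p = 0.0293), a call lost without LPS+DHA5HT array 1 or 3 or DHA5HT array 1 or 4 (adjusted p 0.0540 to 0.111), with all probe sets in the adjustment (0.0638) and when only the compared arrays were fitted (0.0671). Il12a (−0.03) and Il27ra (0.12) were not called.

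DHA5HT without LPS called 0 of the 8 genes (limma), where 0.6% of all genes were called. An unadjusted p under 0.05 was reached by 0 of the 8 and by 1854 of all 18820 genes. Differences lay between −0.12 for Il23a and 0.24 for Il27, whose 95% interval reached −0.15 to 0.64. No member had groups that did not overlap, against 5.89% of all genes. For Il12b the DHA5HT and control means were 4.35 ± 0.19 and 4.30 ± 0.21, and for Il23a 4.58 ± 0.09 and 4.70 ± 0.07. The plot of differences sets the 4 comparisons side by side.

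**Figure D2:**
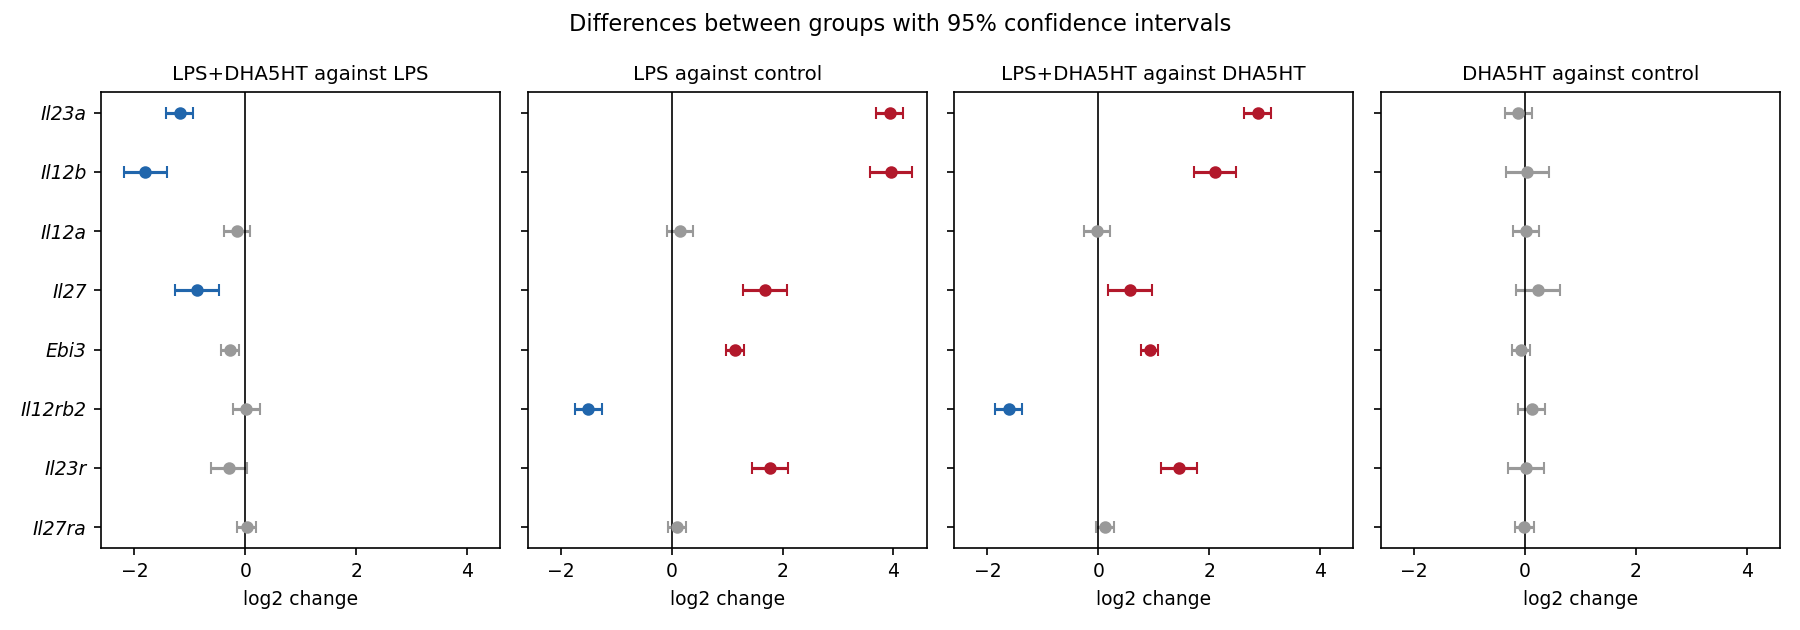
Log2 difference of each family gene (horizontal axis) in 4 comparisons, the group named first minus the group named second. Points are limma estimates with 95% confidence intervals, blue where called lower, red where called higher and grey where not called. Il12b, Il23a and Il27 lie left of 0 in LPS+DHA5HT against LPS, and all 8 intervals span 0 in DHA5HT against control.

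The interaction asks whether DHA5HT acted differently with LPS than without it. It called 2 of the 8 genes, Il12b and Il23a, both lower, where 0.329% of all genes were called and 0.165% called lower. The DHA5HT difference in Il12b was −1.80 with LPS and 0.05 without it, so that the difference between them was −1.85 (SE 0.26, limma adjusted p = 0.00228). For Il23a it was −1.18 with LPS and −0.12 without, a difference of −1.06 (SE 0.16, adjusted p = 0.00542). Neither call was lost under any of the alternatives tried, and without LPS+DHA5HT arrays 1 and 4 the values were −1.52 and −0.85. Both genes were low without LPS, against a background level of 3.85. In DHA5HT and control Il12b averaged 4.35 and 4.30, and Il23a 4.58 and 4.70. A fall as large as the one with LPS could hardly show there. The term therefore cannot tell an absent DHA5HT difference without LPS from one hidden by low signal. For Il27 the interaction was −1.11 (SE 0.27) and did not pass (adjusted p = 0.121), and for Ebi3 it was −0.21 (adjusted p = 0.687).

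To compare genes with unlike LPS responses, the DHA5HT difference was set against the size of each gene's own LPS response. The comparisons behind this ratio share the LPS arrays, so it is a description with an SE and no test. The difference was −45.6% of the log2 response for Il12b (SE 3.97), −30.0% for Il23a (SE 2.61), −51.7% for Il27 (SE 9.67) and −24.3% for Ebi3 (SE 5.93). It was −16.6% for Il23r (SE 8.00), whose control mean lies below background, and −1.07% for Il12rb2 (SE 7.64). The LPS+DHA5HT arrays spread unequally between genes: they lay at 62.9%, 78.3%, 72.6% and 66.4% of the way up from the control mean towards the mean of LPS for Il23a, and at 70.6%, 45.1%, 64.4% and 13.2% for Il27. For Il12b these positions were 52.5%, 69.5%, 55.7% and 39.8%. Without arrays 1 and 4 of this group the ratio was −37.4% for Il12b, −24.6% for Il23a and −18.3% for Ebi3. Il12rb2 lay at 85.7% to 125% on the LPS+DHA5HT arrays and at 91.2% to 113% on the LPS arrays, and these ranges overlapped.

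**Figure D3:**
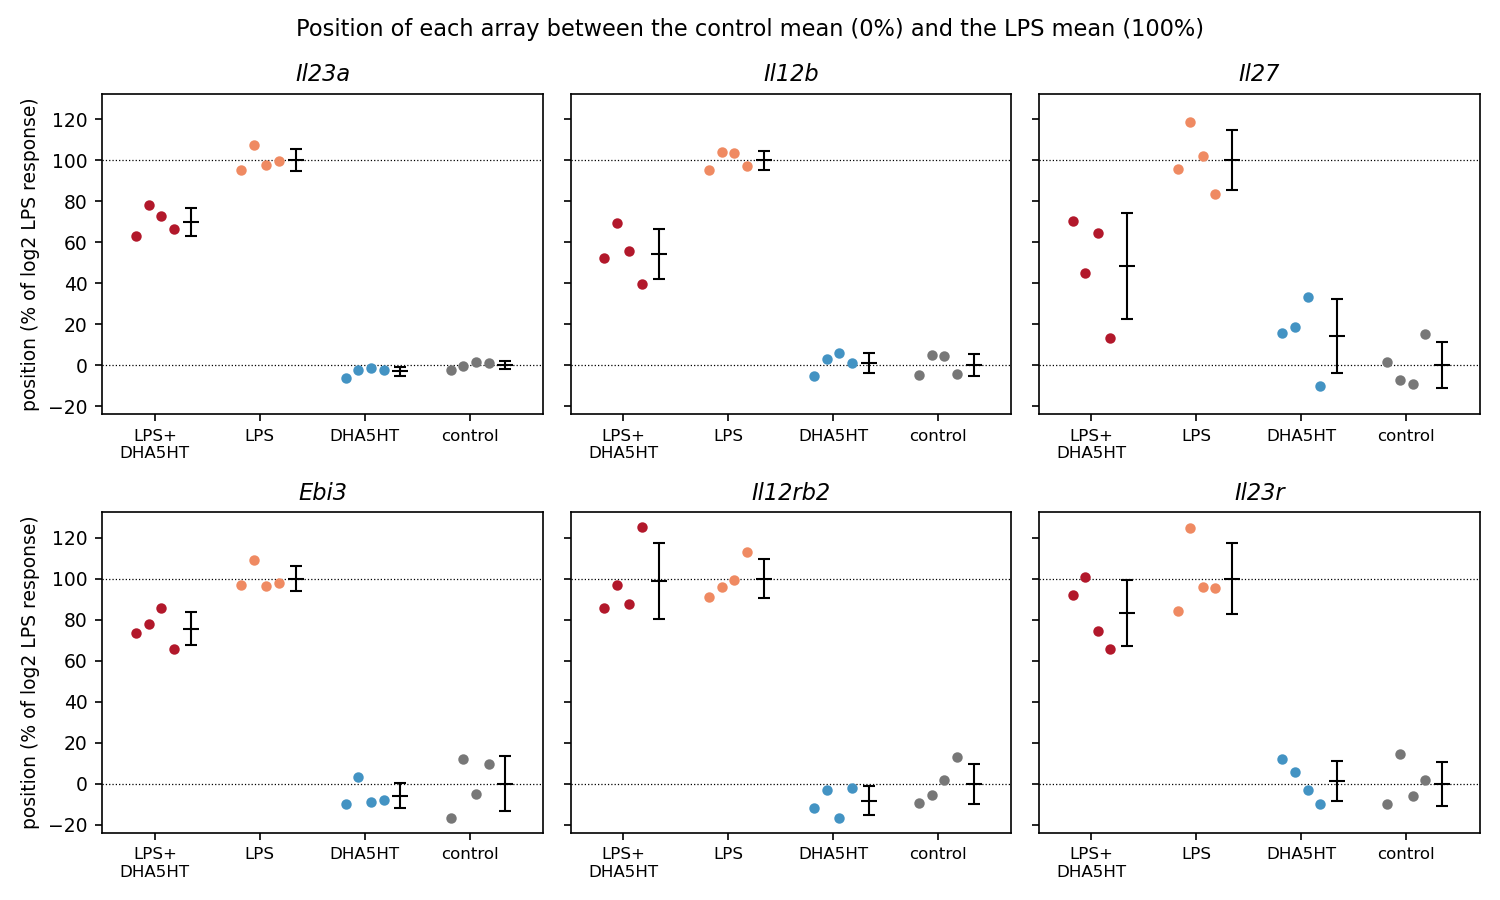
Position of every array on a log2 scale set to 0% at the control mean and 100% at the LPS mean, for the 6 family genes called in LPS against control. Points are arrays 1 to 4 from left to right and bars are mean ± SD (n = 4). The LPS+DHA5HT arrays of Il12b and Il23a lie between 39.8% and 78.3%, and those of Il12rb2 surround 100%.

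Because the chains act in pairs, the difference between partner genes on the same array was compared between groups. The level of such a difference depends on the probe sets, so its change is what can be read. Il12b minus Il23a, the IL-23 pair, was −0.80, −0.73, −1.05 and −1.44 on LPS+DHA5HT arrays, against −0.38, −0.52, −0.15 and −0.49 on LPS arrays. Every LPS+DHA5HT array was lower, by 0.62 on average, while LPS against control changed this difference by 0.01 with overlapping groups. In control both genes were low (Il12b 4.30, Il23a 4.70, background level 3.85), so the 0.01 does not show that LPS raised both equally. Ebi3 minus Il27, the IL-27 pair, was 3.98 ± 0.37 with both agents and 3.39 ± 0.19 with LPS (change 0.59, groups overlapping), and 0.54 lower with LPS than in control with no overlap. Il12b minus Il12a, the IL-12 pair, changed by −1.65 between LPS+DHA5HT and LPS and by 3.80 between LPS and control, both without overlap and both with Il12a near background. Without LPS+DHA5HT arrays 1 and 4 the IL-23 pair differed by −0.51 from LPS. The pairs were chosen after the values of their members were known, and no test was run on them.

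**Figure D4:**
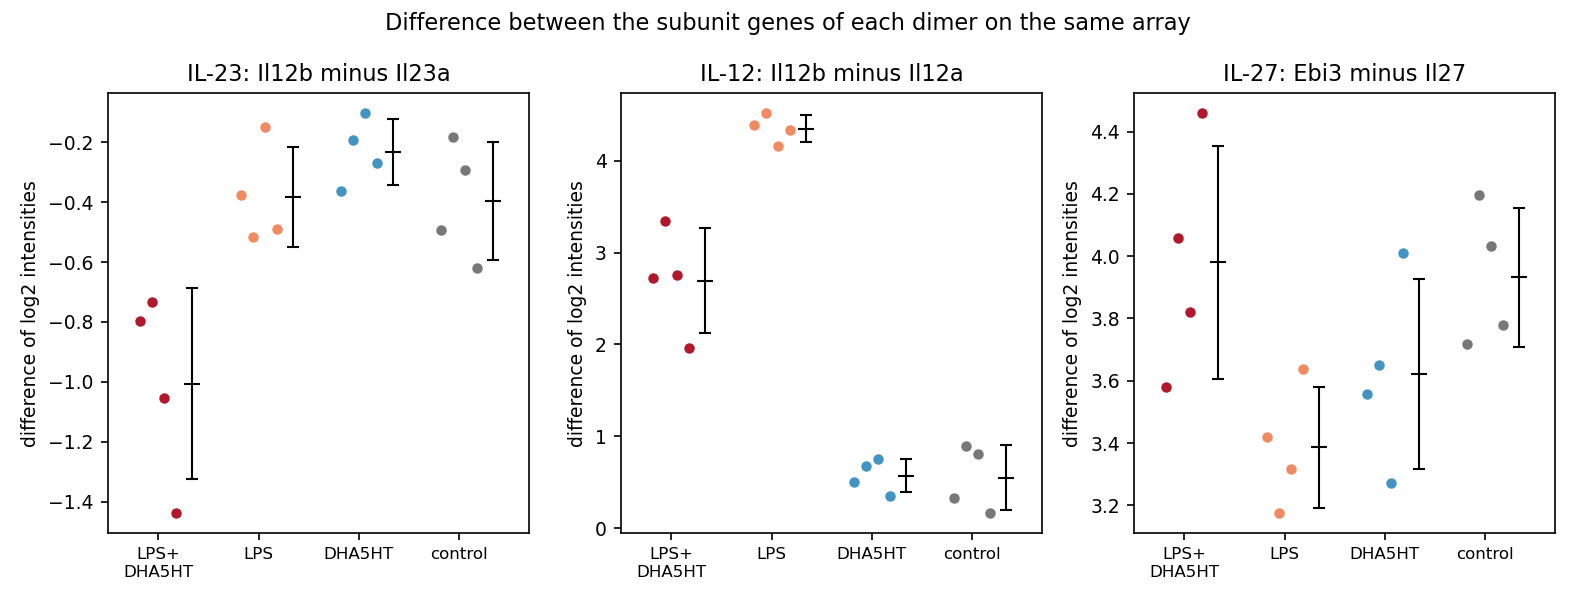
Difference of log2 intensities between partner genes on the same array, for the IL-23, IL-12 and IL-27 pairs. Each panel has its own vertical scale, points are arrays 1 to 4 from left to right and bars are mean ± SD (n = 4). The 4 LPS+DHA5HT arrays of Il12b minus Il23a lie at −0.73 or below and the 4 LPS arrays at −0.52 or above.

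Promoters are shown for the family genes that were higher with LPS and had an entry in the RefSeq promoter table (GRCm38.p6), and were searched for short motifs of NF-kB, IRF, AP-1, C/EBP and PU.1 factors and for a TATA box. Of the 8 genes 5 had entries, 6 in all: Il12b, Ebi3, Il23r, Il12rb2 and Il12a with 2. Each window holds the 250 bases before the annotated start, on the gene's strand, and capitals mark the motif matches.
Il12b promoter, chr11:44399813-44400062, plus strand: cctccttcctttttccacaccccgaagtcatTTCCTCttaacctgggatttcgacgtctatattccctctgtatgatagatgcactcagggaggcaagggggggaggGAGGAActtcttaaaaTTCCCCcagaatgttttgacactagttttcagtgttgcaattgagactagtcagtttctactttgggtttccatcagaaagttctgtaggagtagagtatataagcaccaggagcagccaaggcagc
Ebi3 promoter, chr17:55952373-55952622, plus strand: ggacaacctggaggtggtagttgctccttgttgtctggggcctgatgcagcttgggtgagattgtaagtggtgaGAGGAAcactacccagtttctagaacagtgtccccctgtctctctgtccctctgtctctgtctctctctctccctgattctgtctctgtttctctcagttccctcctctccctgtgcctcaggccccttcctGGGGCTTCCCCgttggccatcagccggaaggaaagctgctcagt
Il23r promoter, chr6:67491856-67492105, minus strand: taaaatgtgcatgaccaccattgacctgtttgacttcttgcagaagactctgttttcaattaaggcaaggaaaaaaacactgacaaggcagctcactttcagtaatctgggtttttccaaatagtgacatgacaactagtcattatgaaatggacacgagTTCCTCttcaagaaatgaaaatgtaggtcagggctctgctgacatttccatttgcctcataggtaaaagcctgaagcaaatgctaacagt

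The Il12b window holds the kB half-site GGGGAA, read on the opposite strand, 127 bases before the start, and the PU.1 core GAGGAA 143 and 219 bases before it. The Ebi3 window holds a match to the full NF-kB consensus 44 bases before the start, which overlaps a kB half-site at 39, and a PU.1 core at 176. The Il23r window holds a PU.1 core 90 bases before its start. Searched on both strands, the kB half-site occurs in 20.3% of 32851 mouse promoters of this length, the NF-kB consensus in 7.25% and the PU.1 core in 23.3%. The half-site was included with the Il12b promoter in view. A pair of IRF boxes (GAAA, any 2 bases, GAAA, in 2.98% of promoters), the AP-1 site TGANTCA (6.75%), the narrow C/EBP patterns TTNCGNAA or TTNGCNAA (6.65%) and TATAAA (12.4%) were not found in these 3 windows, and other forms of these elements were not searched. The windows of Il12rb2 and Il12a held none of the 7 motifs. These are matches of letters and were not tested as binding sites.

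Transcription factors that act on the subunit genes were read as a list of 26 genes, of which 24 were measured. In LPS+DHA5HT against LPS 3 of the 24 were lower and 0 higher, where 0.972% of all genes were lower, and the median change was −0.12 beside 0.00199 over all genes. Bcl6, a transcriptional repressor, averaged 6.50 ± 0.02 with both agents and 6.95 ± 0.16 with LPS (difference −0.45, adjusted p = 0.00186). Nfkbiz, a nuclear cofactor of NF-kB, averaged 9.99 ± 0.15 and 10.46 ± 0.11 in LPS+DHA5HT and LPS (−0.47, adjusted p = 0.0131), a call lost when only the compared arrays were fitted. Rel, the NF-kB subunit c-Rel that binds the Il12b and Il23a promoters, differed by −0.29 (adjusted p = 0.0385), and the call was lost whichever of the 8 arrays was left out (0.0502 to 0.120), with array weights, with all probe sets and with the compared arrays alone. With LPS alone against control 11 of the 24 were higher and 4 lower, where 12.6% of all genes were higher and 15.8% lower, among them Nfkbiz (2.94), Bcl3 (1.50), a nuclear member of the IkB family, and Rel (1.30), while Bcl6 fell by 1.83. Without LPS+DHA5HT arrays 1 and 4 only Bcl6 of the 24 was called in LPS+DHA5HT against LPS, where 41 of all 18820 genes were called. With the array number as a block, where 647 genes were called, Nfkb2 was called as well (−0.29, adjusted p = 0.0332, named after its values were seen). DHA5HT against control called 1 of the 24, where 0.6% of all genes were called. This was Irf7, an interferon regulatory factor named after its values were seen. Irf7 averaged 6.70 ± 0.34 in DHA5HT and 8.91 ± 0.34 in control (−2.21, adjusted p = 2.02e-06), and 10.75 ± 0.22 in LPS+DHA5HT and 10.93 ± 0.16 in LPS (adjusted p = 0.717). Its interaction was 2.03 (adjusted p = 0.000884), the 1 interaction call of the 24, where 0.329% of all genes were called.

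Genes that pass on the signal of these cytokines were read as the shared receptor chains with JAK, STAT and SOCS genes. In LPS+DHA5HT against LPS 0 of 10 measured were called (limma, median change −0.12), where 1.79% of all genes were called. An unadjusted p under 0.05 was reached by 4 of the 10 and by 2570 of all 18820 genes. Stat3, which carries the IL-23 signal, averaged 9.89 ± 0.11 with both agents and 10.14 ± 0.05 with LPS (−0.25, adjusted p = 0.0507), and was called lower with the block (0.0445), with an intensity trend, among bright genes, after quantile normalization and after centring. Socs1 was called lower without LPS+DHA5HT array 1. In LPS against control 5 of the 10 were higher and 1 lower, against 12.6% and 15.8% of all genes. The feedback inhibitor Socs3 was higher by 5.18, the kinase gene Jak2 by 2.33, Socs1 by 1.98 and Stat3 by 0.59. The lower one was Il6st (−0.26, named after its values were seen), which encodes gp130, the signalling partner of the IL-27 receptor chain.

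A list of genes of T-cell and NK-cell responses, not all of them induced by IL-12 or IL-23, was read as well. Its median level was 3.89 in LPS+DHA5HT and 3.81 in LPS arrays, close to the background level. Of 13 measured 0 were called in LPS+DHA5HT against LPS (limma), against 1.79% of all genes. An unadjusted p under 0.05 was reached by 1 of the 13 and by 2570 of all 18820 genes. Il17a, which encodes IL-17A, averaged 4.00 ± 0.17 in LPS+DHA5HT, 4.15 ± 0.06 in LPS, 4.02 ± 0.10 in DHA5HT and 4.15 ± 0.18 in control. Its groups overlapped in LPS against control (−0.00227, adjusted p = 0.990). Ifng lay below background in all 4 groups, from 3.24 to 3.43. In LPS against control 2 of the 13 were higher, Csf2, which encodes the growth factor GM-CSF (5.76), and Gata3, a transcription factor of T cells (0.59), and the IL-18 receptor chain gene Il18rap was lower (−1.53), where 28.4% of all genes were called. Csf2 averaged 8.76 ± 0.61 with both agents and 9.66 ± 0.24 with LPS, and did not pass (−0.89, adjusted p = 0.0625), but was called lower with the array number as a block (0.0437).

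The genes that sense LPS gave 0 of 14 measured called in LPS+DHA5HT against LPS, against 1.79% of all genes (limma, median change 0.00177). An unadjusted p under 0.05 was reached by 4 of the 14 and by 2570 of all 18820 genes. With an intensity trend Irak2 was called lower, where 486 of all 18820 genes were called. Among bright genes Irak2 and Traf6 were called lower, 2 of 13, where 557 of 9410 genes were called. Traf6, an adaptor ligase, was named after its values were seen. In LPS against control 4 were higher and 3 lower, or 5 and 1 with each array centred on its median, where 28.4% of all genes were called. The co-receptor gene Cd14 was higher by 0.50, the adaptor Ticam2 by 1.35 and the kinase gene Irak2 by 1.11, and Tab1, a partner of the kinase TAK1, was lower (−0.36). Cd14 averaged 11.84 ± 0.03 in LPS+DHA5HT and 11.92 ± 0.03 in LPS (−0.08, adjusted p = 0.613).

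Genes most like a family member were ranked by Pearson r over the 16 arrays, among 850 genes whose group means spanned at least 1. These r describe arrays that share their treatment groups and carry no test. For Il23a they were Inhba (r = 0.996), which encodes activin A, the arginine transporter gene Slc7a2 (0.996), Sprr2d (0.996), Heatr9 (0.993) and Stfa3 (0.992). Inhba averaged 8.01 in LPS+DHA5HT, 9.57 in LPS, 4.29 in DHA5HT and 4.38 in control. For Il12b they were the collagenase gene Mmp13 (0.990), Sprr2e (0.989), Acpp (0.986), Sprr2d (0.986) and Krt23 (0.986). Mmp13 averaged 7.52 with both agents, 9.04 with LPS, 5.61 with DHA5HT and 5.67 in control. For Il12rb2 they were Tbc1d8 (0.992), the histone gene H1f5 (0.986), the kinetochore gene Knl1 (0.985), the spindle gene Spag5 (0.985) and the histone gene H4c8 (0.984). Knl1 averaged 7.82 in LPS+DHA5HT and 7.87 in LPS, against 9.32 in DHA5HT and 9.17 in control.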

How the data were processed

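Affymetrix whole-transcript arrays were hybridised with 100 ng of total RNA each, per the labels' protocols. The deposited values are log2 intensities made by the authors with RMA, per the submitters' processing notes; the version, array annotation, genome build and any filter are not given in the sources used here. The table held 35556 probe sets on 16 arrays, with array medians of 4.58 to 4.67. Of these, 21218 named 1 gene, 1881 several and 12457 none in the gene table. A gene with several kept its brightest probe set by mean over the 16 arrays, for 18820 genes in all.

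Groups were compared two-sided in R 4.3.3 with limma 3.58.1, whose lmFit and eBayes steps fitted the 4 group means on every array (Benjamini-Hochberg adjustment over the 18820 genes within each of 5 comparisons, threshold 0.05). The number of arrays limits the precision. The members, the gene lists and the alternatives were chosen with earlier results of these data known. Of each list, up to 4 called genes with the smallest p were named in LPS+DHA5HT against LPS and up to 4 in LPS against control; other names are marked as chosen after their values were seen. For the likeness ranking predicted genes, miRNAs, snoRNAs and members were left out.

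Same-numbered arrays were checked for shared deviations from their group means. Every pair exceeded r = 0.1 in LPS+DHA5HT against LPS (0.116 to 0.205) and in DHA5HT against control (0.131 to 0.183). There the array number was taken to pair the samples, from the data and not from the labels. The limit of 0.1 was a choice, and in LPS against control 3 of 4 pairs exceeded it (lowest 0.0995). The main fit did not pair arrays in any comparison, and results with the block are given beside it. Alternatives were an array-number block, an intensity trend, a filter on dim genes, quantile normalization again, centring, array weights, all probe sets, the compared arrays alone, a threshold of 0.01 and leaving out arrays. Leaving out LPS+DHA5HT arrays 1 and 4 together was added after seeing the data. Figures used matplotlib 3.10.9 in Python 3.11.15.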

Additional observations from a re-analysis of the deposited data

Results flagged for a closer look

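Among the 32 groups of 4 values (8 genes, 4 groups), 2 had an array far from the other 3, by the gap to its nearest neighbour divided by the group's range and Dixon's 95% critical value for 4 samples. Chance gives about 1 in 20 such groups. Both were Ebi3 on array 2: in LPS it stood at 10.48 (gap ratio 0.894) and in DHA5HT at 9.28 (gap ratio 0.839), in each case above the other arrays of its group.

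The DHA5HT difference with LPS and without it differed, by the interaction term, for Il12b (−1.85) and for Il23a (−1.06). Both genes were low without LPS, which limits what this term can show.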

How the results depend on the processing

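Il12b and Il23a kept their calls under every alternative tried in all 4 comparisons that called them, and 0 of the 8 genes were called in DHA5HT against control under any. Beside the calls given with their results, the array-number block changed no call of a family gene. Among the listed genes it added Ticam1 in DHA5HT against control (−0.36, adjusted p = 0.0336). In LPS+DHA5HT against LPS Ebi3 was also called with an intensity trend (adjusted p = 0.0302) and among genes brighter than the median gene (0.0322). Il27 missed the threshold of 0.01 in LPS+DHA5HT against LPS and in LPS+DHA5HT against DHA5HT.

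Counts over all genes in LPS+DHA5HT against LPS moved from 337 to 81 at a threshold of 0.01, 647 with the block, 557 among bright genes, 139 with all probe sets, 86 with the compared arrays alone, 41 without LPS+DHA5HT arrays 1 and 4 and 143 to 289 when single arrays were left out (222, 143, 223 and 177 without LPS arrays 1 to 4, 180 and 154 without LPS+DHA5HT arrays 1 and 4). Centring kept 326, of which 110 were higher and 216 lower, against 154 and 183. DHA5HT against control gave 113 and, with the block, 179. The interaction gave 62, and 28 at a threshold of 0.01, 96 with the block, 28 with all probe sets, 36 without LPS+DHA5HT arrays 1 and 4, and 34 to 62 with single arrays left out (35 without DHA5HT array 1, 37 and 34 without LPS arrays 1 and 2, 41 without control array 2). In the comparisons where not every same-numbered pair exceeded r = 0.1, these pairs had r from 0.0699 to 0.232. Over all groups the median r was 0.129 for same-numbered and −0.0635 for differently numbered pairs. Of all 16 arrays 15 correlated best with an array of their own number, so the numbers may pair samples in every comparison. The cause of these shifts was not tested.

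Shares of the LPS response with single arrays left out ran from −32.7% to −27.6% for Il23a, −50.7% to −40.8% for Il12b, −59.1% to −40.0% for Il27 and −9.92% to 3.51% for Il12rb2. Without LPS+DHA5HT arrays 1 and 4 they were −24.6% for Il23a, −37.4% for Il12b and −18.3% for Ebi3.

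Changes of sign occurred only in differences that were not called. Centring turned Il12a in LPS+DHA5HT against DHA5HT to 0.013. With single arrays left out, LPS+DHA5HT against LPS ran from −0.051 to 0.15 for Il12rb2 and −0.028 to 0.088 for Il27ra, and Il12a in LPS+DHA5HT against DHA5HT from −0.088 to 0.045. DHA5HT against control ran from −0.019 to 0.13 for Il12b, −0.045 to 0.094 for Il12a, −0.043 to 0.11 for Il23r and −0.031 to 0.023 for Il27ra, and the interaction from −0.18 to 0.024 for Il12rb2 and −0.019 to 0.097 for Il27ra. Signal over background limits Il12a and Il27ra in all groups and Il23r, Il12b and Il23a without LPS.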

Other observations

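Beside Il27, the neighbouring genes in RefSeq order were also higher in LPS against control, Nupr1, a stress-induced chromatin protein gene, by 1.38 (limma adjusted p = 9.81e-08) and Apobr by 0.58 (adjusted p = 9.78e-07). Next to Il12b, Ublcp1 was higher by 0.71 (adjusted p = 6.55e-07) and Adra1b, on its other side, differed by 0.16 (adjusted p = 0.103). Next to Il23a, Stat2, a transducer of interferon signals, was higher by 0.64 (adjusted p = 0.00172) and Pan2 differed by −0.11 (adjusted p = 0.420). Next to Ebi3, Zfp119b differed by −0.02 (adjusted p = 0.922) and Yju2 by −0.05 (adjusted p = 0.674), and neither was called. In LPS+DHA5HT against LPS Apobr was called lower, as Il27 was (−0.28, limma adjusted p = 0.0278). Nupr1 (−0.45, adjusted p = 0.0733) and the named neighbours of Il12b, Il23a and Ebi3 were not called there. Across all genes 12.6% were called higher in LPS against control and 0.972% lower in LPS+DHA5HT against LPS. These neighbours were looked at after the values of the family were known.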
